A study of Homo sapiens with 12 samples.

Results

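The 300 windows described here are 1-Mb stretches of the autosomes whose share of lysine succinylation (Ksu) peaks was higher after sodium succinate than in control HepG2/C3A cells. Chromosomes 1 to 22 were cut into 1-Mb windows from their first base, Ksu peaks were counted by midpoint, and windows with 5 or more peaks in each of 4 Ksu libraries were kept. Each kept window received the log2 of its peaks over all autosomal peaks of the library, and the 300 windows with the highest mean of the succinate libraries minus the mean of the control libraries are the members. They were chosen from 2534 kept windows, out of 2731 windows with any Ksu peak. The difference in Ksu share between treatments therefore chose the members, and all values of that contrast are given as a description without a test. HepG2/C3A is a clonal derivative of the HepG2 hepatocellular carcinoma line. Cells grew in high-glucose DMEM with fetal bovine serum and either received 10 mM sodium succinate dissolved in water or served as the control, which the deposited design calls a vehicle control, for 48 hours. CUT&Tag, in which an antibody directs a transposase to chromatin, was made with a pan-Ksu antibody or with an antibody to histone H3 trimethylated at lysine 27 (H3K27me3). Each antibody and treatment had 2 libraries, which the labels call biological replicates. Files of the IgG samples were not analysed here, and the values have no antibody background taken off. What is called a gain is a gain in the share of peaks, since the signal of the libraries was scaled differently and read depth is unknown.

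Lysine succinylation is the transfer of a succinyl group from succinyl-CoA to a lysine, which turns a positive charge into a negative one. Succinyl-CoA and succinate are neighbouring intermediates of the tricarboxylic acid cycle, and the sirtuins SIRT5 and SIRT7 are known to remove the group. A pan-Ksu antibody reads any succinylated protein near the DNA and not a particular histone residue. H3K27me3 is laid down by the Polycomb repressive complex PRC2 over silent developmental genes, and succinate is known to inhibit the alpha-ketoglutarate-dependent demethylases that can remove it. Gene-dense and gene-poor megabases are known to differ in replication timing, base composition and nuclear position.

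Promoters are printed for 4 genes in the highest-ranked member windows that had a Ksu peak over the promoter in both succinate libraries and in neither control library. They are RefSeq sequences of GRCh38.p14 from 250 bases before to 50 bases after the gene start, 5′ to 3′ on the gene's strand, with each CG dinucleotide in capitals. ZSCAN20 and ZNF667 encode zinc finger proteins, SIGLEC8 a sialic acid-binding receptor of eosinophils and mast cells, and KLK4 a secreted serine protease.
ZSCAN20: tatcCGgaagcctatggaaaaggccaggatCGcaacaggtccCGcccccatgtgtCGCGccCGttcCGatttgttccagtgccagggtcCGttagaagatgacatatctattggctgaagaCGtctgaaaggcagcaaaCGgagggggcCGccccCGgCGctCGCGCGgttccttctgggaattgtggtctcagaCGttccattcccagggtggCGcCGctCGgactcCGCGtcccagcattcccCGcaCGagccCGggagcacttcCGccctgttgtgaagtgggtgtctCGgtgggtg
SIGLEC8: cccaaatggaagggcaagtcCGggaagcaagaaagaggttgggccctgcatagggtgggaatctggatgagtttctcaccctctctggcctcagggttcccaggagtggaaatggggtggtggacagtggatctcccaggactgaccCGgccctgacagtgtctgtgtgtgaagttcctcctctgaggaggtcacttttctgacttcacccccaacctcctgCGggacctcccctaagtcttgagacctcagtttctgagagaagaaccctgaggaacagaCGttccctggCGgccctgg
ZNF667: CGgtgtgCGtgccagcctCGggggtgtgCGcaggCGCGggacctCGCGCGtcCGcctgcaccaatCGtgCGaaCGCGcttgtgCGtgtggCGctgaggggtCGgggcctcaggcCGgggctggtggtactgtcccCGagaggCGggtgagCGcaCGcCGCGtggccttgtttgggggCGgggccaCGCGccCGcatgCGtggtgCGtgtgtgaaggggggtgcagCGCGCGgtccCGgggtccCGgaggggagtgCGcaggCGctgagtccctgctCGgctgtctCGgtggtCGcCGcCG
KLK4: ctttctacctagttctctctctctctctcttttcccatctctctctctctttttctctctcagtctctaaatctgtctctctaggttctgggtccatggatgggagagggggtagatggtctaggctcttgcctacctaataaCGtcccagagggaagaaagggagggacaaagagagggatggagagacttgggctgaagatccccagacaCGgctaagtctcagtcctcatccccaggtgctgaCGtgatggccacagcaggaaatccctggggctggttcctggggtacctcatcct
The promoter of ZSCAN20 (chr1:33472395-33472694, plus strand) holds 27 CG dinucleotides. It was touched by a peak of 425 bp in succinate replicate 1 and by one of 128 bp in succinate replicate 2, which shared 0 bp with each other. The promoter of SIGLEC8 (chr19:51458405-51458704, minus strand) holds 5 CG dinucleotides and lay under peaks of 1180 and 891 bp, and it also had H3K27me3 peaks in all 4 H3K27me3 libraries. The promoter of ZNF667 (chr19:56477296-56477595, minus strand) holds 42 and had Ksu peaks of 1221 and 851 bp and no H3K27me3 peak. The promoter of KLK4 (chr19:50910689-50910988, minus strand) holds 3, had Ksu peaks of 659 and 940 bp, and had H3K27me3 peaks in the replicate 1 libraries of both treatments. These promoters therefore range from CG-rich to CG-poor, and from no H3K27me3 peak in any library to a peak in all 4.

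Promoters with a Ksu peak only after succinate were not more frequent in the members than in the other kept windows. Of the 3812 protein-coding genes in the members, 2921 had a promoter in the table. Of those promoters, 31 (1.06%) had a Ksu peak in both succinate libraries and neither control library. The same held for 141 of 9773 promoters (1.44%) in the other kept windows and for 1.35% of the 12694 in all kept windows. The rule favoured windows with few control peaks, where a promoter more easily lacks a control peak, so nothing is read from these shares. In the members no promoter had a Ksu peak in all 4 libraries, and none had one in both control libraries and neither succinate library. Over all kept windows these were also rare, at 4 (0.0315%) and 15 (0.118%) promoters. Ksu peaks touched 34 and 167 of the member promoters in control and 207 and 341 in succinate. Expressed per promoter this came to 1.16%, 5.72%, 7.09% and 11.7%, and the share of all member bases under Ksu peaks was 0.862%, 3.37%, 6.26% and 12.7% in the same libraries. The ratio of promoter share to base share in the members was 1.35 and 1.697 in the control libraries and 1.13 and 0.918 in the succinate libraries, so promoter hits increased by less than base cover did. A promoter counted when a peak touched any part of it, so peaks placed without regard to promoters also give a ratio above 1. The ratio varies with peak width, which differed between libraries, so no preference for promoters is read from it.

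The Ksu libraries held 76090 and 370201 autosomal peaks in control and 290362 and 612943 in succinate. The weakest peak in each list had a total signal of 8977 (control) and 4247 (succinate) steps in the replicate 1 libraries and 76.0 and 49.0 steps in the replicate 2 libraries, a step being the smallest unit of a library's signal. The replicates therefore differed in how weak a peak could be and still be listed, and the part of this in the members' values was not tested. Of 25 genes for liver transcription factors and secreted plasma proteins, 1 was touched by an H3K27me3 peak in control replicate 1 and none in the other 3 H3K27me3 libraries.

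In control cells the members held fewer Ksu peaks than an average kept window, and in succinate-treated cells they held about as many. A low share in control raises the value that chose the members, so this is a description. Relative to the mean kept window of the same library, a member held on average 0.281 and 0.512 times as many peaks in the control libraries and 0.880 and 1.06 times as many in the succinate libraries. The members held 5 to 24 peaks each in control replicate 1 (median 8) and 28 to 140 in control replicate 2 (median 72). In succinate they held 41 to 227 (median 93) and 128 to 353 (median 243). Together the members held 3.31% and 5.91% of all autosomal Ksu peaks in control and 10.1% and 11.9% in succinate, while the 300 windows with the lowest difference went from 23.1% and 17.5% to 11.03% and 9.31%. By covered bases the picture was the same, with 3.24% and 5.62% of covered bases in the members in control and 10.1% and 11.9% in succinate.

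**Figure D1:**
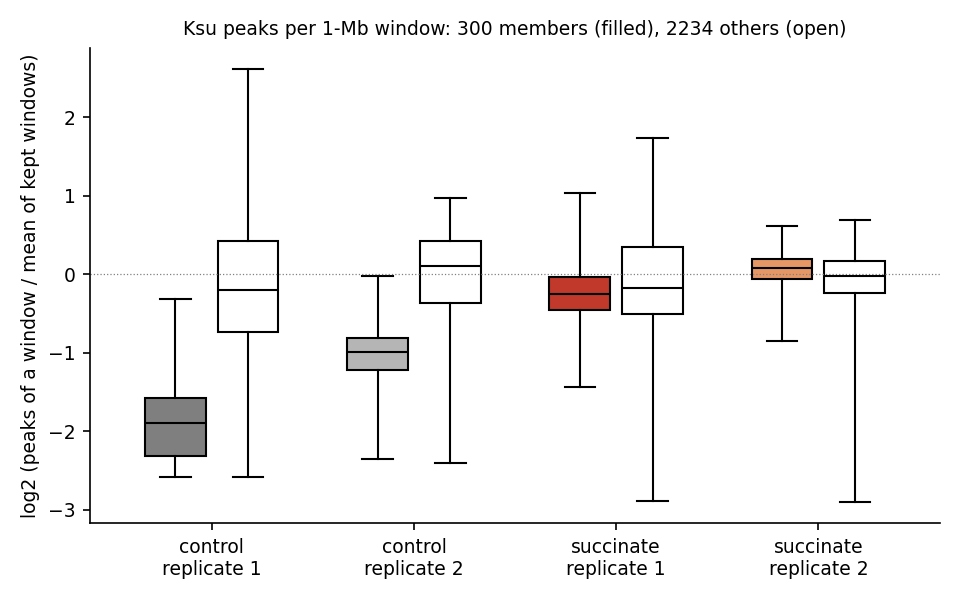
Ksu peaks per 1-Mb window in each library, as log2 of the window's peaks over the mean of the 2534 kept windows, for the 300 members (filled boxes) and the other 2234 kept windows (open boxes); boxes show quartiles and median, whiskers the full range. The members lie below the mean in both control libraries and close to it in both succinate libraries.

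The log2 difference of the members had a median of 1.29, from 1.08 to 2.12, which corresponds to 2.44-fold, from 2.11-fold to 4.36-fold. Over all kept windows the median was 0.078. In all 300 members both succinate libraries lay above both control libraries, which held for 36.8% of all kept windows; the rule used this contrast, so nothing is read from the count. Replicates within a treatment differed as well, with a median pooled SD of 0.48 over the members against 0.31 over all kept windows. The difference was larger between the replicate 1 libraries (median 1.59, range 0.86 to 2.86) than between the replicate 2 libraries (median 1.05, range 0.31 to 2.23), and this order held in 266 of the 300 members, against 1505 of the 2534 kept windows. These values chose the members, so nothing is read from that count either. Across all 2534 kept windows the differences of the replicate numbers had a Spearman rho of 0.83. Within the members rho was -0.16 (n = 300 windows), but choosing windows on the mean of both differences pushes this value down, so nothing is read from it. Windows share their libraries, so these coefficients describe the tables and carry no test. Taking the 300 highest windows by either replicate number alone gave lists that shared 145 windows, 48.3% of each, and all 145 were members. The rule takes the mean of both differences, so a window high in both is very likely a member. Nothing is read from their membership.

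**Figure D2:**
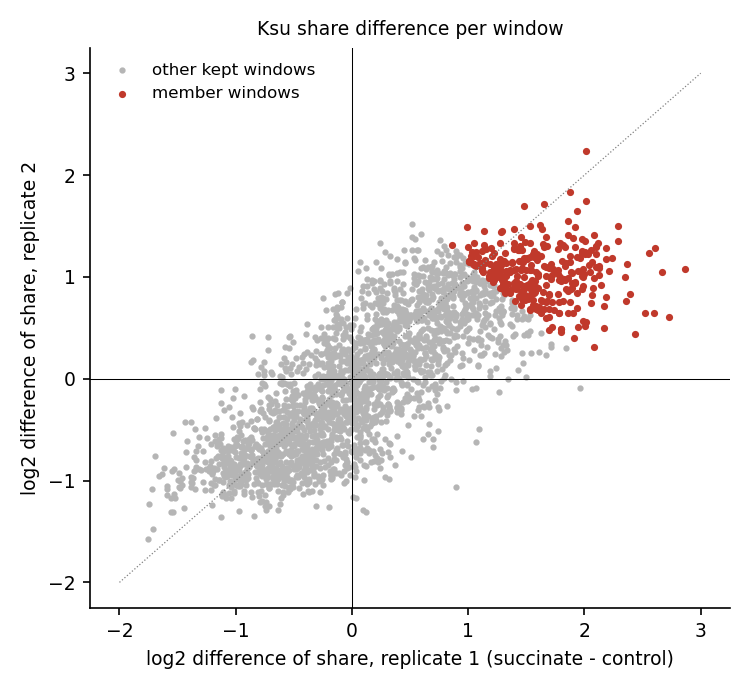
Log2 difference of the Ksu share (succinate minus control) of each kept window between the replicate 1 libraries (x axis) and between the replicate 2 libraries (y axis), with members in red, other kept windows in grey and the line of equality dotted. All members are above 0 on both axes, and 266 of 300 have the larger value on the x axis.

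The lower edge of the list is not a break in the values. The last 3 members, chr3:184000001-185000000 (12, 84, 106 and 268 peaks), chr15:59000001-60000000 (9, 63, 69 and 231) and chr22:38000001-39000000 (10, 71, 95 and 210), had log2 differences of 1.08. So did the first 3 windows outside, chr13:113000001-114000000 (7, 85, 77 and 217), chr4:39000001-40000000 (11, 48, 78 and 190) and chr1:2000001-3000000 (7, 110, 96 and 225). Low counts in control replicate 1 weigh on the list. In that library 39 members held exactly the minimum of 5 peaks, and with a minimum of 10 peaks only 90 of the members were kept. A higher minimum leaves the value of each remaining window unchanged, so these 90 were bound to be chosen again. At a common floor of signal in steps for all libraries, control replicate 2 kept 2507 peaks and 18 members still had a peak in every library, with a median log2 difference of 0.40 and a pooled SD of 0.92. Only windows with control peaks can enter that median. Over all 300 members together the log2 difference of the share of peaks was 2.51 at that floor, against 1.31 with all peaks. With equal numbers of peaks per library 167 of the 300 members were chosen again, and with the 50% of peaks of highest signal 59 were. Leaving out control replicate 1 kept 165 of the 300 members among the 300 highest windows, and leaving out any other Ksu library kept 242 to 265.

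The highest-ranked window was chr19:52000001-53000000, a cluster of zinc finger genes in the distal long arm. It held 5 and 28 Ksu peaks in control and 77 and 218 in succinate, or 0.657, 0.756, 2.65 and 3.56 per 10000 autosomal peaks of the library. Both control libraries lay far below both succinate libraries, with a log2 difference of 2.12 and a pooled SD of 0.23. ZNF480, ZNF528 and ZNF83, which encode zinc finger proteins, had 5.47%, 4.16% and 5.41% of their gene bodies under Ksu peaks in succinate replicate 1 and 20.7%, 20.4% and 17.5% in replicate 2. In control these shares ran from 0% to 3.43%. No H3K27me3 peak lay in this window in any library.

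Next came chr1:33000001-34000000, with 5 and 78 peaks in control and 139 and 273 in succinate (log2 difference 1.97, pooled SD 0.84). It holds TRIM62, which encodes a ubiquitin ligase, and part of CSMD2, a gene of 651845 bp for a large membrane protein. Ksu peaks covered 0% and 1.83% of TRIM62 in control and 14.7% and 22.8% in succinate, and 0.921%, 4.67%, 10.3% and 16.9% of CSMD2 in the same order. The window chr19:51000001-52000000 held 5, 58, 116 and 233 peaks (log2 difference 1.94, pooled SD 0.63). It lies next to the highest-ranked window and contains ZNF613, ZNF649 and ZNF175 as well as SIGLEC8. The window chr15:73000001-74000000 held 5, 70, 112 and 273 peaks (log2 difference 1.89, pooled SD 0.77), with CD276, an immune checkpoint ligand, and TBC1D21, of which H3K27me3 peaks covered 50.2% and 0% in control and 79.1% and 30.2% in succinate.

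On chromosome 22, chr22:25000001-26000000 held 5, 56, 93 and 263 peaks (log2 difference 1.89), with the lens crystallin gene CRYBB2 and the myosin gene MYO18B. The window chr22:33000001-34000000 held 7, 52, 108 and 289 (1.88) and contains part of SYN3, a synapsin gene. Among ranks 7 to 15, chr17:9000001-10000000 contains RCVRN, the photoreceptor calcium sensor recoverin, and GAS7. The window chr1:35000001-36000000 contains TFAP2E, an AP-2 transcription factor, of which Ksu peaks covered 0% in both control libraries and 6.30% and 36.3% in succinate. The window chr18:12000001-13000000 contains CIDEA, a lipid droplet protein, and chr17:39000001-40000000 contains the ribosomal protein gene RPL19, which no Ksu peak touched in any library. The others were chr21:34000001-35000000 with SLC5A3, a myo-inositol transporter, chr17:27000001-28000000 with LGALS9 and KSR1, chr15:63000001-64000000 with APH1B and CA12, chr19:56000001-57000000 with ZNF667, and chr17:6000001-7000000. These windows ranged from 1.71 to 1.85. The last holds SLC13A5, the plasma membrane citrate transporter of hepatocytes, with 0% and 4.84% of its body under Ksu peaks in control and 5.22% and 13.7% in succinate. Some genes of these windows lay under H3K27me3 as well. H3K27me3 peaks covered all of STAC2 (in the RPL19 window) in all 4 libraries, 80.7%, 91.2%, 82.0% and 98.2% of CA12, a carbonic anhydrase gene, and 58.4%, 68.7%, 86.9% and 100% of CIDEA. In other genes the cover was lower in succinate or mixed, with 26.99%, 0%, 0% and 0% of CRYBB2, 0%, 23.8%, 0% and 0% of RCVRN, 30.6%, 0%, 0% and 0% of GSG1L2 (in the RCVRN window) and 81.4%, 60.5%, 61.0% and 60.7% of WSCD1 (in the SLC13A5 window). In all 15 windows control replicate 1 held 5 to 7 peaks, so each of them rests on few peaks in that library.

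The members were rich in genes, a property the rule did not use. A member contained a median of 10 protein-coding genes by midpoint (mean 12.7, range 0 to 46), against a median of 4 over all kept windows and 1 in the 300 windows of lowest difference. Gene bodies took up a median of 63.0% of a member, 46.5% of a kept window and 13.2% of a window of lowest difference. Of the 313 kept windows without a protein-coding gene, 1 was a member (0.319%), and of the 150 with 20 or more genes, 59 were (39.3%). The share of members rose in every class between them, from 1.53% at 1 to 2 genes over 8.05%, 14.7% and 29.9% at 10 to 19 genes.

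The libraries of the treatments differed in how Ksu peaks followed gene number. In the control libraries the mean relative peak number fell from 1.24 and 1.35 in windows without genes to 0.536 and 0.617 in windows with 20 or more. In the succinate libraries it was 0.827 and 0.815 without genes and 0.983 and 1.02 with 20 or more. Over the 2534 kept windows, Spearman's rho between the share of peaks and the number of genes was -0.40 and -0.68 in the control libraries and 0.16 and 0.41 in the succinate libraries, and rho between the difference and the number of genes was 0.72. Windows that lie side by side share genes and libraries, and gene number goes with base composition, which was not measured here.

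**Figure D3:**
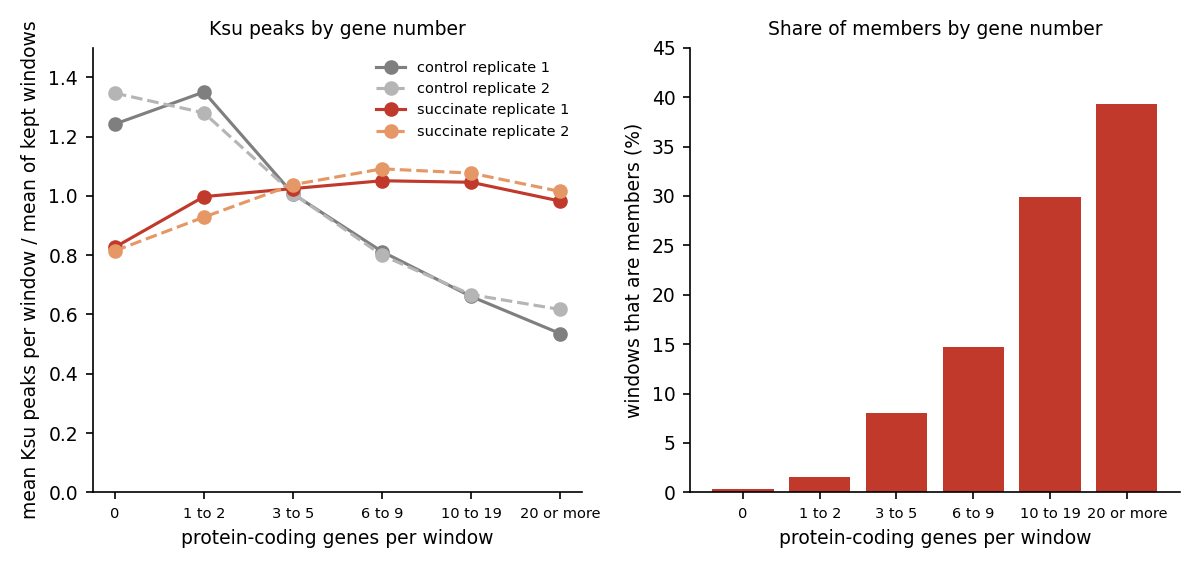
Left, mean Ksu peaks per window over the mean of all kept windows (y axis) by number of protein-coding genes in the window (x axis) for each library; right, the percent of windows in each class that are members. The control lines fall to 0.536 and 0.617 at 20 or more genes and the succinate lines end at 0.983 and 1.02, while the share of members rises from 0.319% to 39.3%.

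Few members were gene-poor. The member without a protein-coding gene was chr14:106000001-107000000, which lies in the immunoglobulin heavy chain locus and held 7 and 61 peaks in control and 73 and 167 in succinate (log2 difference 1.09). Another 9 members had 1 or 2 genes, among them 3 windows on chromosome 3 and 4 on chromosome 22. The most gene-dense windows, on the other hand, were often not eligible. Of the 197 windows that missed the minimum of 5 peaks, 120 had 10 or more genes, and each of these 120 passed the minimum in the other 3 libraries and missed it in control replicate 1.

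Members were spread unevenly over the chromosomes. Of all 2534 kept windows 300 were members, and the counts below are over kept windows only. On chromosome 22, 18 of 20 kept windows were members (90.0%), on chromosome 19, 12 of 24, on chromosome 15, 29 of 72 (40.3%), and on chromosome 17, 21 of 59 (35.6%). Chromosome 1 gave the largest number, 35 of 211. There was no member among the 63 kept windows of chromosome 20, and there were 2 of 170 on chromosome 6, 3 of 237 on chromosome 2, 4 of 132 on chromosome 10 and 5 of 174 on chromosome 5. Of the kept windows of chromosome 20, 25 had 10 or more genes. Its windows had 2.33 and 1.11 times the mean number of peaks in control and 1.88 and 1.12 times in succinate. HepG2 is known to carry extra copies of chromosomes 2, 14, 16, 17 and 20. Of these, chromosome 2 had 3 members of 237 kept windows and chromosome 20 had none of 63. Members were 17 of 85 on chromosome 14, 11 of 72 on chromosome 16 and 21 of 59 on chromosome 17. Whether copy number plays a part in membership was not tested.

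**Figure D4:**
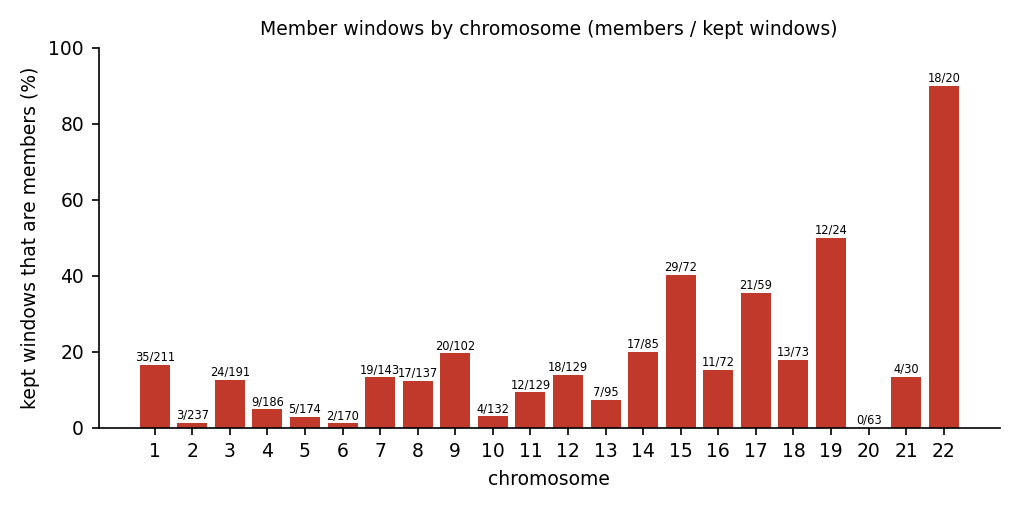
Percent of the kept windows of each autosome that are members, with the number of members over the number of kept windows above each bar. Chromosome 22 has 18 of 20 and chromosome 20 has 0 of 63.

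Members lay beside one another. They formed 200 runs, of which 144 were isolated windows and 56 held 2 or more windows, with 156 members in the latter. The 264 kept windows next to a member that were not members themselves had a median log2 difference of 0.65, and 177 of them (67.0%) had both succinate libraries above both control libraries, against 36.8% of all kept windows. The 1970 kept windows that neither were nor touched a member had a median of -0.15. Flanking windows had a median of 7 genes and the remaining ones 3. Members also lay closer to chromosome ends, with 26.0% within 10 Mb of one against 13.2% of all kept windows.

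The longest run was chr15:67000001-75000000, with 8 windows and 76 protein-coding genes. It held 56 and 524 Ksu peaks in control and 751 and 2030 in succinate, and the median of its log2 differences was 1.61. Genes there include ITGA11, a collagen-binding integrin, CELF6, an RNA-binding protein, NR2E3, a photoreceptor nuclear receptor, and THSD4. Ksu peaks covered 0% of NR2E3 in both control libraries and 22.6% and 22.2% in succinate, and 0.670%, 4.14%, 6.20% and 14.7% of THSD4. The second run was chr18:7000001-14000000, with 7 windows, 39 genes and 68, 697, 927 and 2064 peaks (median difference 1.27). It contains the laminin gene LAMA1, with 0.731% and 8.84% of its body under Ksu peaks in control and 14.7% and 18.9% in succinate, the receptor phosphatase gene PTPRM and the mechanosensitive channel gene PIEZO2. The next was chr22:25000001-31000000, with 6 windows, 60 genes and 45, 408, 574 and 1542 peaks (median difference 1.58). It contains LIF, a cytokine gene with 0% and 9.78% under Ksu peaks in control and 8.66% and 33.3% in succinate, and MN1, a transcriptional regulator gene. H3K27me3 peaks covered 67.1% and 42.5% of MN1 in control and 85.1% and 100% in succinate. In each of these runs the succinate libraries held a larger share of their peaks than either control library. Since every member has this order, a run of members must have it too, and nothing is read from it. The limits given above for gene covers hold for the genes of these runs too.

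Gene groups were placed by the midpoint of each gene, beside the 23.9% of all 15919 genes in kept windows that lay in a member. Genes of 1 cluster share a window, so these counts are not independent. Of 39 HOX genes, which set body axis identity and are classic PRC2 targets, 25 lay in members (64.1%), in just 3 windows. The HOXC10 to HOXC13 window chr12:53000001-54000000 held 7, 80, 112 and 234 Ksu peaks (log2 difference 1.44). The HOXA window chr7:27000001-28000000 held 8, 81, 97 and 254 (1.29), and the HOXB window chr17:48000001-49000000 held 14, 96, 156 and 311 (1.26). H3K27me3 peaks covered 262.8 and 226.4 kb of the HOXB window in control and 296.9 and 307.7 kb in succinate. In the HOXC window they covered 230.2, 163.8, 244.5 and 248.8 kb in the same order. In the HOXA window the values were 119.6, 93.1, 114.1 and 100.6 kb, with control replicate 1 above both succinate libraries. These values in kb are not scaled, and the libraries covered 198, 116, 172 and 139 Mb of autosomes in the same order. No change at the HOX windows is read from them. Genes named ZNF had 130 of 327 in members (39.8%). Ribosomal protein genes had 16 of 59 (27.1%) and claudin genes 3 of 13 (23.1%).

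Genes of succinate metabolism and desuccinylation had 7 of 24 in members (29.2%), near the share of all genes, and their median window difference was 0.57 against 0.67 over all genes. Besides SLC13A5 these were SIRT7, a nuclear sirtuin, and SLC25A10, the mitochondrial dicarboxylate carrier, which share chr17:81000001-82000000 (5, 86, 103 and 193 peaks; log2 difference 1.44). SDHA, the catalytic subunit of succinate dehydrogenase, lay in chr5:1-1000000 (5, 70, 72 and 223 peaks; 1.43). SDHAF2, which helps to assemble that enzyme, CPT1A, a carnitine acyltransferase, and OGDH, which makes succinyl-CoA, lay in windows of 1.15, 1.14 and 1.13. Of 18 JmjC-family genes, 3 lay in members: KDM5A in chr12:1-1000000 (1.54), PHF2 (1.21) and HR (1.11). Of 8 PRC2 genes, 2 did: MTF2 in chr1:93000001-94000000 (1.56) and SUZ12 in chr17:31000001-32000000 (1.43). The shares of JmjC-family and PRC2 genes, 16.7% and 25.0%, also lay near or below the 23.9% of all genes. Their median window differences, 0.92 and 0.75, lay above the 0.67 of all genes.

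Other groups were seldom in members. Liver transcription factor and plasma protein genes had 2 of 21 (9.52%), among them SERPINA1, for alpha-1 antitrypsin. Olfactory receptor genes had 35 of 341 (10.3%), keratin and keratin-associated genes 5 of 65, histone genes 2 of 61 and cadherin genes 2 of 23. None of the 53 clustered protocadherin genes and none of the 36 glutamate and GABA-A receptor genes did, and 11 of the latter lay in the 300 windows of lowest difference. Genes of 500 kb or more, many of them neuronal, had 23 of 301 in members (7.64%) and 63 in the windows of lowest difference. Among these seldom-found groups, only the histone genes had a median window difference (0.99) above the 0.67 of all genes.

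Peaks in the members were close in size to peaks elsewhere in the same library. The median Ksu peak of the members was 979 and 432 bp wide in the control libraries and 589 and 470 bp wide in the succinate libraries. In the other kept windows the widths were 978, 446, 583 and 470 bp. The median highest signal, in steps, was 30, 11, 23 and 17 in the members and 33, 12, 23 and 18 elsewhere. Peak midpoints lay in gene bodies in 57.8% and 58.2% of cases in the control libraries and in 59.2% and 60.6% in the succinate libraries. Gene bodies make up 60.5% of the members' bases. This difference of 1.87 percentage points had a pooled SD of 0.73. In the other kept windows the shares were 38.2%, 37.4%, 42.8% and 44.1%, with gene bodies at 42.1% of bases. Within the members, then, Ksu peaks lay in gene bodies about as often as the bases do, in every library.

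The places of single peaks recurred little between libraries. Shared bases in the members were 1.28 times the number expected from the cover of each window for the 2 control libraries and 1.32 times for the 2 succinate libraries. They were 1.75 times for control and succinate replicate 1 and 1.77 times for control and succinate replicate 2, so libraries of the same replicate number shared more than libraries of the same treatment. The remaining combinations gave 1.31 and 1.35. In the other kept windows the same-number values were 1.55 and 1.80 and the rest ran from 1.20 to 1.26. Of the bases under succinate replicate 1 peaks in the members, 17.4% lay under succinate replicate 2 peaks.

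H3K27me3 came from other libraries than those that chose the members. The members carried more of this mark than the other kept windows in every library. H3K27me3 peaks covered 12.5% and 7.65% of member bases in control and 12.5% and 10.3% in succinate, against 6.34%, 3.64%, 5.12% and 4.07% in the other kept windows and at most 1.13% in the windows of lowest difference. The other kept windows had a median of 4 genes, against 10 in the members. The 339 of them with 10 or more genes held 25.0%, 29.6%, 26.9% and 29.2% of all H3K27me3 peak bases, in library order. The 165 members with 10 or more genes held 11.7%, 13.2%, 13.9% and 14.9%. No excess of the members over other gene-rich windows is read from these shares. In 17 members no H3K27me3 peak was present in any library, and in 120 the mean cover was over 100 kb. The rule holds the Ksu difference of every member above its lower edge, so the members' medians of 1.40 in the 17 and 1.30 in the 120 do not show how Ksu and H3K27me3 go together. Over all kept windows the median Ksu difference was -0.56 in the 633 without H3K27me3 and 0.70 in the 468 with over 100 kb. Of these windows 2.69% and 25.6% were members. The 633 had a median of 1 gene and the 468 a median of 9.5, so H3K27me3 and gene number cannot be told apart in these values. Members with few genes also carried the mark. Those with 3 to 5 genes had a median cover of 39.8 kb, against 8.05 kb in other windows with as many genes, and those with 10 to 19 genes had 87.1 kb against 66.9 kb.

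The share of all autosomal H3K27me3 peak bases that lay in the members was 18.98% and 19.7% in the control libraries and 21.7% and 22.2% in the succinate libraries. The treatments did not overlap, and the log2 difference of 0.18 exceeded the pooled SD of 0.03 (n = 2 libraries per treatment). An exact two-sided permutation test over 4 libraries has 6 arrangements and cannot give a p below 2 in 6, so this difference could not pass that test at 0.05. It was 0.15 to 0.21 when each library was left out and 0.15 to 0.19 with other sets of peaks. In members with 10 or more genes the shares were 11.7%, 13.2%, 13.9% and 14.9% (log2 difference 0.21, pooled SD 0.10), and in members with fewer genes 7.25%, 6.53%, 7.85% and 7.32% (0.14, pooled SD 0.09). In the 339 other kept windows with 10 or more genes they were 25.0%, 29.6%, 26.9% and 29.2%, where the treatments overlapped with a log2 difference of 0.04 and a pooled SD of 0.13. In the 1895 others with fewer genes they were 46.6%, 40.4%, 39.5% and 36.1% (-0.20, pooled SD 0.12). In the 197 windows below the minimum, 120 of them with 10 or more genes, the shares were 9.37%, 10.3%, 11.9% and 12.4% (log2 difference 0.31, pooled SD 0.08). A higher share in succinate was therefore not particular to the members.

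**Figure D5:**
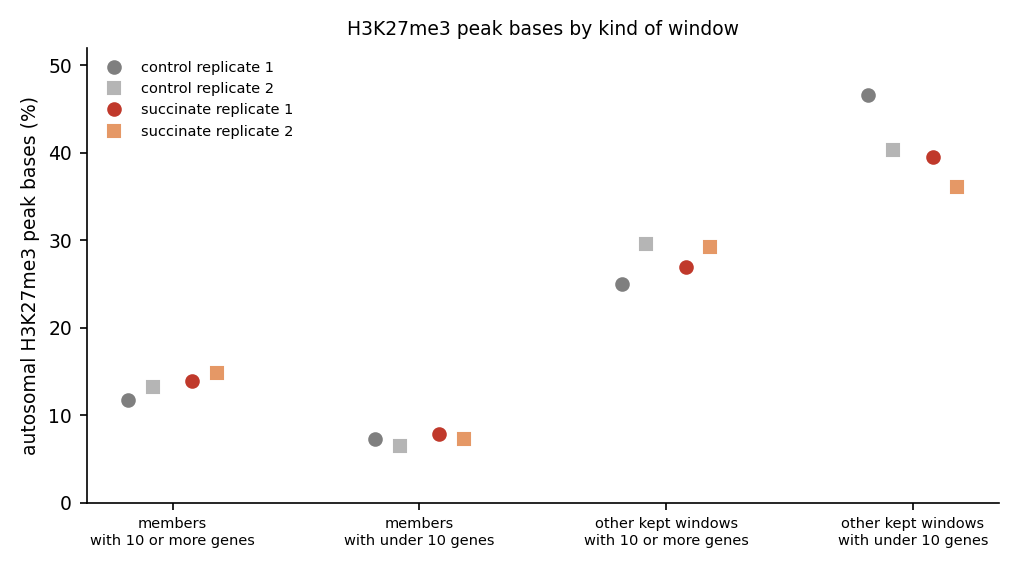
Percent of all autosomal H3K27me3 peak bases (y axis) in 4 kinds of window, split by membership and by 10 protein-coding genes, with a point for each library. In members with 10 or more genes the succinate libraries (13.9% and 14.9%) lie above the control libraries (11.7% and 13.2%), and in the other kept windows with 10 or more genes the treatments overlap.

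Window by window, no H3K27me3 change passed. Of the 1372 kept windows with a mean H3K27me3 cover of 5 kb or more, 267 were members, and limma with Benjamini-Hochberg adjustment called none of the 1372 (0%) at a threshold of 0.05, with a lowest adjusted p of 0.89. At an unadjusted p of 0.05, 64 windows passed (4.66%), 17 higher and 47 lower in succinate, and 9 members passed (3.37%), all higher. Without control replicate 2 the number called over all windows was 37, and without succinate replicate 1 it was 41, where a lone library was assumed to vary like the others. In simulated data the spreads of these windows were dealt out among them at random. There the same fit called 0 of 50 windows changed by 2 on the log2 scale and 21 of 50 changed by 4. The simulation did not keep the link between a window's cover and its spread. It therefore does not give the size of change that could be called in windows of small spread. The median log2 difference was 0.16 over the 267 members and -0.14 over the 1372 windows. It was above 0 in 182 members (68.2%) and in 537 of all windows (39.1%). Both succinate libraries lay above both control libraries in their H3K27me3 share in 76 of the 267 members (28.5%), against 12.2% of all windows tested, and below them in 19 members (7.12%), against 22.5%.

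Ksu and H3K27me3 peaks met inside the members a little more often than their cover gives. H3K27me3 bases under Ksu peaks of the same treatment and replicate number were 1.56 and 1.31 times the number expected from the cover of each window in control and 1.37 and 1.20 times in succinate. In the other kept windows these ratios were 1.44, 1.22, 1.33 and 1.13. The overlap took up 1.46% and 4.88% of the members' H3K27me3 bases in the control libraries and 9.76% and 16.2% in the succinate libraries, which moved with the bases under Ksu peaks. Within the windows, the ratio was therefore not higher in succinate than in the control library of the same replicate number.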

How the data were processed

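Peaks were called with SEACR on genome build hg38, per the submitters' processing notes. Each of the 8 lists analysed, of 12 samples, belongs to 1 library and gives each peak's position, total and highest signal. The aligner, the scaling and the threshold are not given in the sources used here. The deposited signal (coverage) values are whole multiples, within 0.02, of a step that differs between libraries, so signals were compared only in steps or within a library. Windows, cover and shares were computed with Python 3.11.15, numpy 2.4.6 and pandas 2.3.3. H3K27me3 cover per window in kb, scaled to equal covered length, was tested as log2 of cover plus 1 kb with limma 3.58.1 in R 4.3.3, succinate against control, over all kept windows with a mean of 5 kb or more; the fit and the window rule were tested on simulated data. Expected overlap was the product of the covers of a window. Genes and promoters came from RefSeq (GRCh38.p14): 12694 of 15919 genes in kept windows had a promoter, 76.6% in the members, so base composition over these promoters was not compared because such a check is void below 80%. No promoter had Ksu peaks in all 4 libraries in the members, so that planned set is empty. Named are the 15 highest windows, the 3 longest runs, ranks 298 to 303 and, in each window, up to 3 genes, those of the gene lists first and then those with the highest Ksu cover in succinate; SIGLEC8 and some list members are named outside this rule. Some genes that this rule names are not reported here. The members and lists were chosen with earlier results of these data known. Alternatives were other sets of peaks, minimums, list lengths, left-out libraries and a replicate block. Read depth is unknown, so no counting intervals are given. With 2 libraries a group, SDs describe the spread between these cultures as labelled.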

Additional observations from a re-analysis of the deposited data

Results flagged for a closer look

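Windows that missed the minimum of 5 peaks lie outside the comparison of the members, yet held a larger share of Ksu peaks in both succinate libraries than in both control libraries. These 197 windows held 0.580% and 2.46% of autosomal Ksu peaks in control and 3.44% and 4.76% in succinate. All 197 missed the minimum in control replicate 1, and 170 of them only there, so the filter itself fixed a low share in that library and the Ksu contrast is given as a description. Their H3K27me3 share also lay higher in succinate, at 9.37% and 10.3% of covered bases in the control libraries against 11.9% and 12.4% in the succinate libraries, with no test made. The median number of protein-coding genes in them was 13.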

How the results depend on the processing

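The rule without a minimum and with 1 peak added to each count was an alternative chosen after seeing the data, and the others were planned. With equal numbers of peaks per library 167 of the 300 members were chosen again, with the 50% of highest signal 59, with a minimum of 10 peaks 90 and without a minimum 173, where 127 of the 300 chosen had been left out before. With fewer peaks or a higher minimum fewer members can pass the minimum: 255, 61 and 90 did. The minimum of 10 leaves the value of each remaining window unchanged, so the 90 that passed it were bound to be chosen again. At a common floor 95 windows and 0 members passed, so no list of 300 could be made. There the median Ksu share difference became 0.40 (18 members with a peak in every library), that of covered bases 0.56, the log2 difference of the members' share of peaks 2.51 and the gene body difference -0.40 points. The gene body difference was 3.22 with the 50% of highest signal. The cause was not tested. Leaving out each library gave a median Ksu difference of 0.90 to 1.77, a share difference of 0.89 to 1.73, a covered-base difference of 0.97 to 1.77, a gene body difference of 1.16 to 2.58, 165 to 265 members chosen again and 0 to 41 H3K27me3 windows called. The median number of genes was 10 to 13 in the lists chosen again with a minimum of 10 or none, equal numbers of peaks or windows cut from 0.5 Mb. Libraries of the same replicate number deviated together over windows (correlation 0.67 for Ksu and 0.52 for H3K27me3), but the labels do not tie the numbers to a shared batch. A replicate block called 0 H3K27me3 windows. Each replicate number has a library of each treatment, so a block cannot change a mean difference or the count without overlap. These stayed at 1.29, 1.31, 1.36 and 1.87 for Ksu, 0.18 for H3K27me3 and 300 members, and nothing is read from that.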

Other observations

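Chromosome X was not part of the rule. It had 51 windows with 5 or more Ksu peaks in all 4 libraries, and their log2 differences of the share, relative to autosomal peaks, had a median of -0.30 and a highest value of 0.92. None reached the value of the lowest member, 1.08.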
